A study of Homo sapiens with 4 samples.

Results

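A group of 10 genes of the IL6-type and colony-stimulating cytokine systems was followed in parental SUM159 cells and in NOS2KO clones: the ligands IL6, LIF, IL11, CLCF1, CSF1, CSF2 and CSF3 and the receptor subunits IL6ST, OSMR and LIFR. They were picked by name, as the rows whose Ensembl identifier carries 1 of these 10 symbols in GENCODE release 29. The names were chosen with earlier results of these data known. Of the 57500 genes in the files, 10 belong to this group, and all 10 passed the expression filter that left 22511 genes for testing. RNA-sequencing was done on 1 library of parental SUM159 cells, a triple-negative breast cancer cell line with metaplastic features, and on 1 library from each of 3 NOS2KO clones of that line, numbered 1, 5 and 6 in the labels. The NOS2KO cells had received paired nickase plasmids directed at NOS2, were selected with puromycin and then chosen as clones by iNOS immunoblotting and nitrite/nitrate measurement, while the control carries the genotype label of a parental line. The labels name no drug for any of the 4 samples, each sample is a single library, and each clone descends from selected cells, so clonal differences and NOS2 loss cannot be told apart from these libraries.

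IL6-type cytokines are secreted proteins, and most of them signal through IL6ST (gp130), a membrane protein which nearly all cells carry. IL6 and IL11 first bind their own receptors, whereas LIF brings IL6ST together with LIFR, and oncostatin M can use IL6ST with either OSMR or LIFR. The assembled receptors switch on JAK kinases and STAT3, and SOCS proteins switch the signal off. The colony-stimulating factors CSF1, CSF2 (GM-CSF) and CSF3 (G-CSF) act on macrophages and granulocytes and their precursors through separate receptors, and tumour cells can secrete all 3.

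The libraries held 90467395 counts on genes in the parental cells and 97362293 to 122171287 in the clones. For NOS2, the targeted gene, the parental library held 2 counts, clone 1 held 3, the library labelled clone 5 held 18 and clone 6 held 1. Its mRNA thus does not check the knockout labels, and it lay above the parental count in the library labelled clone 5. All 6 markers of the cell line (VIM, KRT8, KRT18, CD44, EGFR and SNAI2) were detected in every library, and 5 of them, all but EGFR, lay above the parental library in every clone. VIM had 1655 CPM (the count scaled to the TMM-adjusted library size) in the parental library and 2890 to 3855 CPM in the clones. Among 7 leukocyte markers the summed level was 17.8 CPM in the parental library and 53.4 to 110.5 CPM in the clones, and PTPRC (CD45) alone had 4.45 CPM in the parental library and 41.7 to 105.4 CPM in the clones. CD14 and ITGAM lay below the parental library in every clone, CD14 with 12.8 CPM against 2.29 to 11.3 CPM and ITGAM with 32 counts against 1 to 13. The lymphocyte markers CD3E and MS4A1 had 0 counts in the parental library and at most 8 in a clone. The summed level of 6 fibroblast markers ran from 511 to 3669 CPM in the clones beside 1036 CPM in the parental library, and that of 4 endothelial markers from 11.0 to 15.0 CPM beside 16.4 CPM. Most of the parental endothelial sum was PECAM1 (16.1 CPM), which was lower in every clone, whereas CDH5 (1 count in the parental library, 12 to 372 in the clones) and VWF (19 counts, then 32 to 405) were higher in every clone. The part of these markers in the results was not tested. In bulk RNA, fewer cells that express a gene and less of its RNA per cell cannot be told apart.

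Do the NOS2KO clones differ from parental SUM159 cells in the message for these cytokines and receptors? IL6, LIF, IL11 and CSF3 were lower in every clone, by 6.38-fold at the least. CSF1, IL6ST and OSMR were lower by a smaller factor, LIFR was higher, and CLCF1 and CSF2 were close to the parental level. In edgeR's quasi-likelihood test of the 3 clones against the parental library, with Benjamini-Hochberg adjustment over all 22511 genes, 0 of the 10 genes passed an adjusted p of 0.05, a bar that 0.00444% of all genes passed. By unadjusted p, 6 of the 10 were under 0.05, against 11.5% of all genes tested. For its volcano plot of genes under AP-1 transcription factors, the study called genes at p under 0.05, using a Wald test. The log2 fold change had to be below -1 or above 1, and the legend does not say whether p was adjusted. Below, the criterion means these limits applied to edgeR's quasi-likelihood p without adjustment. By it the genes lower in the clones were IL6, LIF, IL11, CSF3 and IL6ST, 5 of 10 against 5.34% of all genes tested. The gene higher in the clones was LIFR, 1 of 10 against 4.24%. The same 6 genes passed these limits by the unadjusted p of DESeq2's Wald test, for which the share of all genes was not counted. DESeq2's Wald test gave IL6, LIF, IL11 and CSF3 an adjusted p under 0.05, 4 of 10 against 2.44% of all genes that were lower by that test, and none of the 10 was higher against 2.5%. A single parental library was analysed, so these tests take their spread from the 3 clones and assume the same spread in the parental cells. The p-values measure only the spread between cultures of selected clones. Because the members were chosen with earlier results of these data known, the shares of all genes beside them are given as a description.

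**Figure D1:**
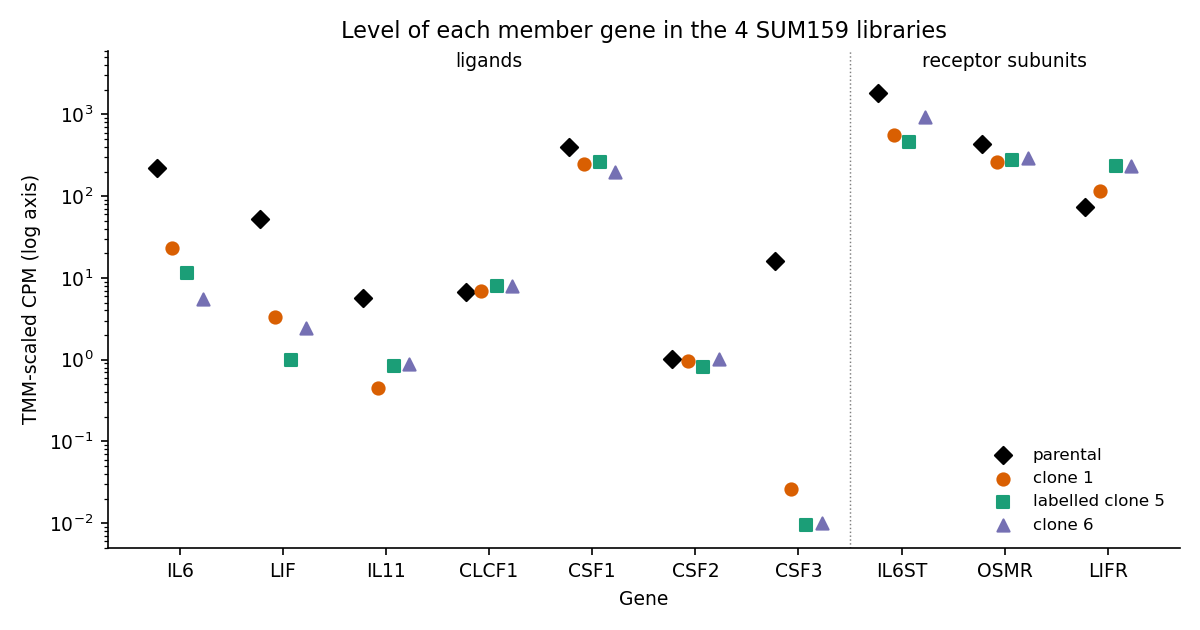
Level of the 10 genes in TMM-scaled CPM (log axis) in each of the 4 SUM159 libraries, with 1 point per library, ligands on the left and receptor subunits on the right. The parental library lies above all 3 clones for 8 genes and below them for CLCF1 and LIFR, and CSF3 is at 3 counts or fewer in every clone.

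IL6, the founding ligand of the family and a mediator of the acute-phase response, was abundant in parental SUM159 cells and low in each clone. It had 219.5 CPM in the parental library, 23.0 CPM in clone 1, 11.6 CPM in the library labelled clone 5 and 5.51 CPM in clone 6. The parental level stood 9.53-fold above the highest clone, while the clones spread over 4.18-fold among themselves. The fitted log2 fold change of IL6 was -4.04 (standard error 0.79, adjusted p = 0.281 with edgeR's quasi-likelihood test). DESeq2's Wald test gave IL6 an adjusted p of 0.000216. IL6 lies on chromosome 7 of GRCh38 from 22725884 to 22732002 (ENSG00000136244), and an antisense gene that overlaps it (ENSG00000179428) went the other way in counts, with 33 in the parental library and 82 to 153 in the clones. The strand setting of the counting is not given in the sources used here, so reads from overlapping genes on opposite strands cannot be told apart.

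LIF, the leukemia inhibitory factor that acts through LIFR and IL6ST, followed the same direction. It had 52.2 CPM in the parental library, 3.33 CPM in clone 1, 1.00 CPM in the library labelled clone 5 and 2.43 CPM in clone 6. The highest clone was 15.7-fold below the parental library, and here the library labelled clone 5 was the lowest, where for IL6 it was clone 6. Over the 3 clones, LIF differed from the parental library by a fitted log2 value of -4.53 (standard error 0.70, adjusted p = 0.273 with edgeR's quasi-likelihood test), and DESeq2's Wald test gave an adjusted p of 1.35e-06. LIF (ENSG00000128342) is on chromosome 22 from 30240447 to 30246851, and an overlapping antisense gene (ENSG00000268812) was low in the same libraries, with 317 counts in the parental library and 17, 4 and 3 in clone 1, the library labelled clone 5 and clone 6.

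IL11, a ligand that pairs with IL11RA and is known for its part in bone and fibrotic tissue, was a low-level transcript already in the parental cells. It had 5.63 CPM in the parental library, 0.445 CPM in clone 1, 0.844 CPM in the library labelled clone 5 and 0.882 CPM in clone 6. All clones lay far below the parental library, and clone 1 was the lowest. Clone 1 gave a log2 ratio of -3.66 for IL11 (exact Clopper-Pearson 95% interval -4.11 to -3.25), and clone 6 gave -2.67 (interval from -3.02 up to -2.34). Fitted over the 3 clones, the log2 fold change of IL11 was -2.96 (standard error 0.65, adjusted p = 0.310 with edgeR's quasi-likelihood test), and DESeq2's Wald test gave an adjusted p of 0.00135. IL11 (ENSG00000095752) lies on chromosome 19 from 55364389 to 55370463.

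CLCF1, a ligand that acts through CNTFR, LIFR and IL6ST, stood apart from the other 3 ligands of its family. It had 6.67 CPM in the parental library, 7.01 CPM in clone 1, 7.89 CPM in the library labelled clone 5 and 7.94 CPM in clone 6. CLCF1 differed from the parental library by a fitted log2 value of 0.19 (standard error 0.40, adjusted p = 0.876 with edgeR's quasi-likelihood test). The exact 95% interval of its log2 ratio in clone 1 ran from -0.08 to 0.23. It ran from 0.09 to 0.40 in the library labelled clone 5 and from 0.10 to 0.41 in clone 6, above the parental level in both. CLCF1 (ENSG00000175505, chromosome 11 from 67364168 to 67374177) overlaps RAD9A on the opposite strand, which had 1791 counts in the parental library and 1829 to 3087 in the clones.

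Among the colony-stimulating factors, CSF3 was close to undetected in the clones. The parental library held 1455 counts, clone 1 held 3, and the library labelled clone 5 and clone 6 held 1 each, which is 16.1 CPM against at most 0.0262 CPM. Every clone was thus at or under the floor of 3 counts. The ratio of the parental library to clone 1 was 615, with an exact 95% interval of 210.1 to 2987, and the lower ends of the intervals were 307 when the library labelled clone 5 was compared and 284 with clone 6. For CSF3 the log2 fold change from the fit was -9.91 (standard error 0.71, adjusted p = 0.241 with edgeR's quasi-likelihood test) and rests on counts at the floor. Its adjusted p was 6.39e-24 with DESeq2's Wald test. CSF3 (ENSG00000108342) is on chromosome 17 from 40015361 to 40017813. It encodes G-CSF, which drives the making of neutrophils.

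CSF1, the macrophage colony-stimulating factor, remained a high-level transcript in every library. It had 404 CPM in the parental library, 248 CPM in clone 1, 258 CPM in the library labelled clone 5 and 199.7 CPM in clone 6. The parental library lay 1.57-fold above the highest clone, and the clones lay within 1.29-fold of each other. The fitted log2 fold change of CSF1 was -0.78 (standard error 0.31, adjusted p = 0.438 with edgeR's quasi-likelihood test), and CSF1 did not meet the criterion. CSF1 (ENSG00000184371) lies on chromosome 1 from 109910242 to 109930992.

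CSF2, which encodes GM-CSF, was barely expressed. The parental library held 92 counts, clone 1 held 110, the library labelled clone 5 held 87 and clone 6 held 100, or 1.02, 0.959, 0.816 and 1.01 CPM in that order. These levels lay within 1.25-fold of each other, and the exact 95% intervals of the 3 log2 ratios reached from -0.76 to 0.42, so a change of 1 on the log2 scale lies outside the counting error in each clone. Over the 3 clones, CSF2 differed from the parental library by a fitted log2 value of -0.13 (standard error 0.57, adjusted p = 0.943 with edgeR's quasi-likelihood test). CSF2 (ENSG00000164400) is on chromosome 5 from 132073790 to 132076170.

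**Figure D2:**
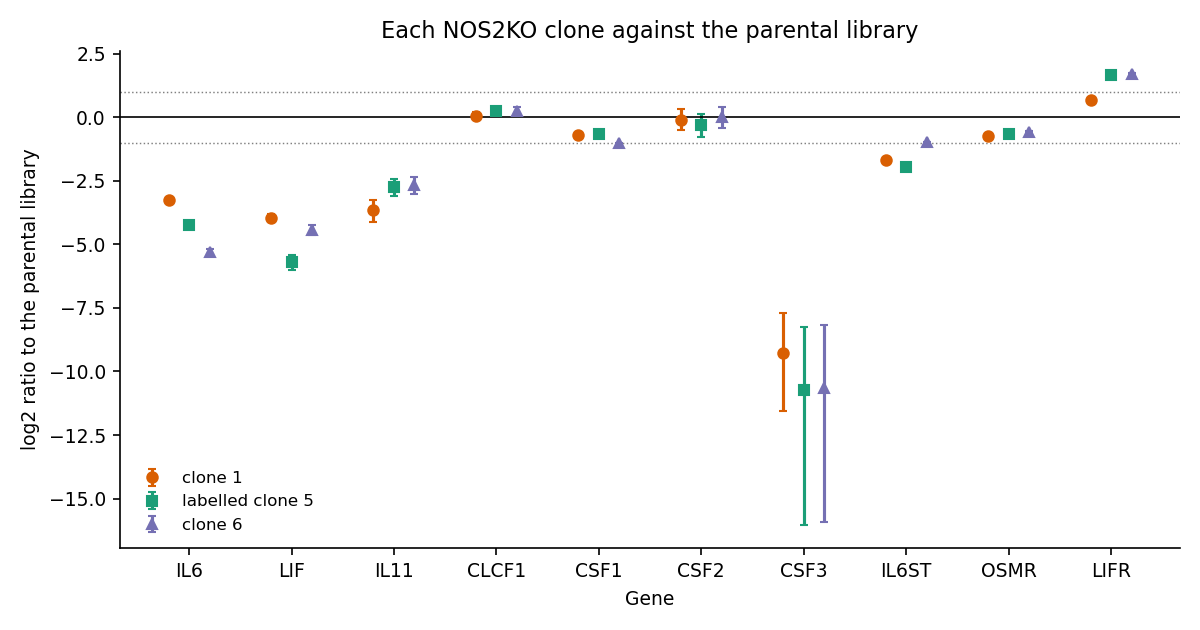
Log2 ratio of each NOS2KO clone to the parental library for the 10 genes, with exact 95% intervals from the counts (counting error only) and dotted lines at -1 and 1. IL6, LIF, IL11 and CSF3 lie below -1 in all 3 clones, IL6ST lies below -1 in clone 1 and the library labelled clone 5 and at -0.97 in clone 6, and LIFR lies above 0 in all 3.

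Clone by clone, the same 4 ligands were below -1 on the log2 scale in each of the 3 clones, 4 of 10 genes against 6.29% of all genes tested, and no member was higher by that much in all 3, against 7.67%. Where only genes reaching 10 CPM in some library were counted, a group to which 7 of the 10 belong, IL6, LIF and CSF3 were lower in this way, against 5.24% of 10709 genes, and none was higher, against 4.26%. In clone 1, 5 of the 10 were lower (IL6, LIF, IL11, CSF3 and IL6ST) against 20.2% of all genes tested, and none was higher against 17.1%. In the library labelled clone 5 the same 5 were lower against 14.7%, and LIFR was higher against 21.3%. In clone 6 the 5 lower genes were IL6, LIF, IL11, CSF3 and CSF1 against 16.7%, and LIFR was higher against 19.3%. The parental library lay above every clone for 8 of the 10 genes and below every clone for CLCF1 and LIFR, where 30.5% and 28.6% of all genes tested did so. The median log2 fold change over the 10 genes was -1.13 and over all genes tested 0.10. These ratios share 1 parental library and are not independent.

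The receptor subunits differed in direction. IL6ST, the shared signal transducer, had the highest level per kilobase of the 10 transcripts in every library. It had 1803 CPM in the parental library, 565 CPM in clone 1, 460.0 CPM in the library labelled clone 5 and 918 CPM in clone 6. The parental level was 1.96-fold above clone 6 and 3.92-fold above the library labelled clone 5, while the clones differed by up to 1.99-fold. IL6ST differed from the parental library by a fitted log2 value of -1.48 (standard error 0.50, unadjusted p = 0.0263, adjusted p = 0.370 with edgeR's quasi-likelihood test). Without the library labelled clone 5 the unadjusted p of edgeR's test was 0.0618 and IL6ST no longer met the criterion, while all 3 clones gave IL6ST an unadjusted p of 0.0108 with DESeq2's Wald test. IL6ST (ENSG00000134352) lies on chromosome 5 from 55935095 to 55994993.

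OSMR, the subunit that binds oncostatin M with IL6ST, had 434 CPM in the parental library, 261 CPM in clone 1, 274 CPM in the library labelled clone 5 and 293 CPM in clone 6. The clones lay within 1.13-fold of each other, and the parental library was 1.48-fold above the highest of them. Its fitted log2 fold change was -0.65 (standard error 0.29, adjusted p = 0.465 with edgeR's quasi-likelihood test), and OSMR did not meet the criterion. The gene (ENSG00000145623, chromosome 5 from 38845858 to 38945596) overlaps RICTOR on the opposite strand, which had 5270 counts in the parental library and 3098 to 5780 in the clones.

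LIFR, the subunit that binds LIF and CLCF1-type ligands, was the member that stood higher in the clones. It had 73.1 CPM in the parental library, 117 CPM in clone 1, 233 CPM in the library labelled clone 5 and 236 CPM in clone 6. Clone 1 was 1.60-fold above the parental library, and the other clones were 3.19-fold and 3.23-fold above it. For LIFR the log2 fold change from the fit was 1.42 (standard error 0.49, unadjusted p = 0.0491, adjusted p = 0.433 with edgeR's quasi-likelihood test). With edgeR's test LIFR was just inside the criterion, and it was outside without the library labelled clone 5 (unadjusted p = 0.0844) or without clone 6 (0.0973). DESeq2's Wald test over all 3 clones gave LIFR an unadjusted p of 0.0149, and that test was not run with a clone left out. LIFR (ENSG00000113594, chromosome 5 from 38474963 to 38608354) is overlapped on the opposite strand by LIFR-AS1, whose counts also stood higher, from 132 in the parental library to 435, 961 and 1055 in clone 1, the library labelled clone 5 and clone 6. OSMR and LIFR both lie on chromosome 5, and their ratios had opposite signs in every clone.

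Set against each other per kilobase of exon, the members ranked differently in the parental library and the clones. In the parental library IL6 was the leading ligand, with 106 CPM per kilobase, ahead of CSF1 with 74.6, LIF with 13.1, CSF3 with 7.25, CLCF1 with 3.38, IL11 with 2.11 and CSF2 with 1.29. CSF1 led in each clone, with 36.9 to 47.6 CPM per kilobase. Of the summed per-kilobase level of the 7 ligands, IL6 made up 51.0% in the parental library, against 17.8% in clone 1, 9.53% within the library labelled clone 5 and 5.82% in the remaining clone. CSF1 made up 35.9% in the parental library and 73.0% to 80.9% in the clones. Over the clones, the levels of IL6 (2.66 to 11.1 CPM per kilobase) and CLCF1 (3.55 to 4.02) overlapped, as did those of LIF (0.253 to 0.839) and IL11 (0.166 to 0.330), so their order is not settled by this spread. CLCF1 passed IL6 in clone 6. With 1 parental library, neighbours in the parental order cannot be set against a spread.

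The order of the 3 receptor subunits was the same in every library, with IL6ST first, OSMR second and LIFR last, while their proportions differed. LIFR stood at 3.17% of IL6ST per kilobase in the parental library, while clone 1 had 16.2%, the library labelled clone 5 had 39.7% and clone 6 had 20.1%. OSMR stood at 31.2% of IL6ST in the parental library and at 41.4% to 77.2% in the clones. These ratios are taken within a library and do not depend on the scaling between libraries.

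**Figure D3:**
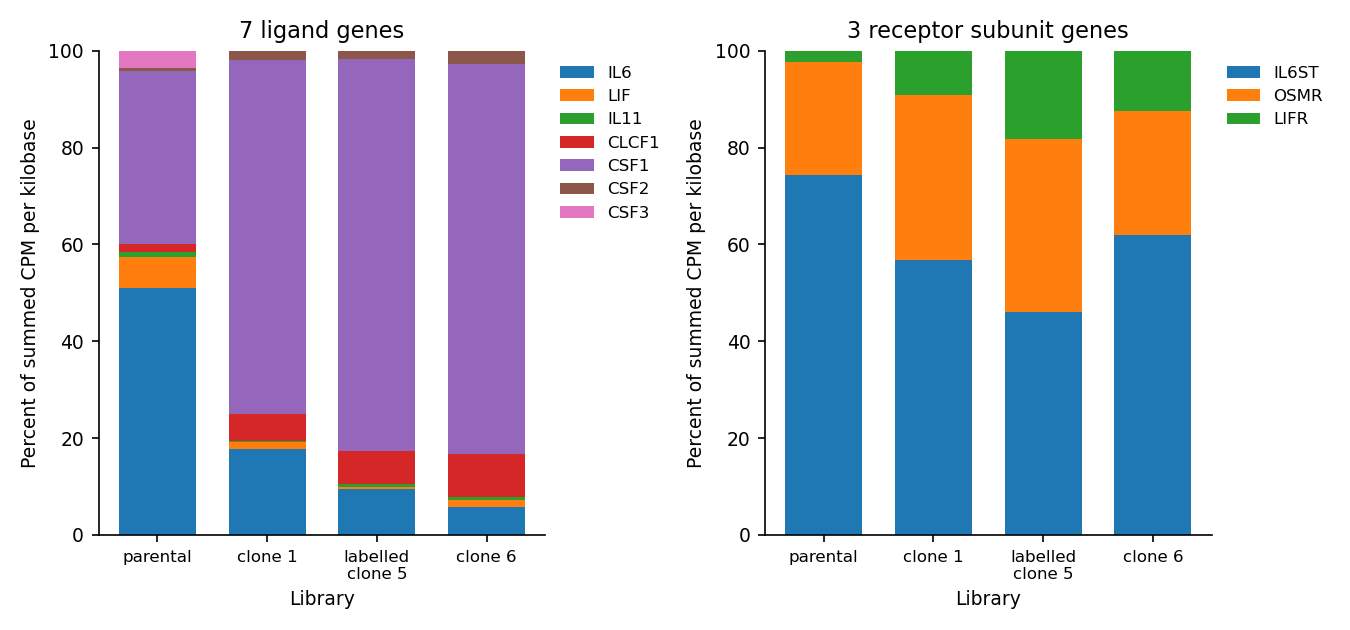
Percent of the summed TMM-scaled CPM per kilobase of exon that each gene contributes to the 7 ligand genes (left) and to the 3 receptor subunit genes (right), 1 bar per library. IL6 makes up 51.0% of the ligand bar in the parental library and 5.82% to 17.8% in the clones, where CSF1 leads, and LIFR makes up 2.36% of the receptor bar in the parental library and 9.20% to 18.3% in the clones.

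Promoter sequences were held for 6 of the 10 members (CSF2, IL11, IL6, IL6ST, LIFR with 3 starts, and OSMR) in the RefSeq table on GRCh38.p14. LIF, CLCF1, CSF1 and CSF3 were not in it. The 250 bases before the start are shown for IL6, IL11 and CSF2, to set the letters beside the levels. The start is the one in that table, which need not be the start of the gene span given above. For IL6 that span begins at 22725884, so its window lies inside the span. IL6 and IL11 were lower in every clone than in the parental library. CSF2 was near its parental level in every clone, at 0.816 to 1.02 CPM over all libraries. Capitals mark matches on either strand to 5 motifs: AP-1 (TGANTCA), CRE (TGACGTNA), C/EBP (TTGCNNAA), the TATA box (TATAAA) and the kappaB motif. The windows are chr7:22726950-22727199 on the plus strand for IL6, chr19:55370464-55370713 on the minus strand for IL11 and chr5:132073539-132073788 on the plus strand for CSF2, each written 5′ to 3′.
IL6: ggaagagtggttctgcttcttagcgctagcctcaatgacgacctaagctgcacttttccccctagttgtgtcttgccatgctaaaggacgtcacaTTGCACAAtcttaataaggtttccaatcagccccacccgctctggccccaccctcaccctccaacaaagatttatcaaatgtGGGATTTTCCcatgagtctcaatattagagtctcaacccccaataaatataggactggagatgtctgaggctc
IL11: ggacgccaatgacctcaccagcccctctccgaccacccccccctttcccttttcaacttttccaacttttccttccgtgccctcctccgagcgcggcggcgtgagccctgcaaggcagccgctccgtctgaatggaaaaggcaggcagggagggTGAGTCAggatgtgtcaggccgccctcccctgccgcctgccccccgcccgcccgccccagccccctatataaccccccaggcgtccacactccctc
CSF2: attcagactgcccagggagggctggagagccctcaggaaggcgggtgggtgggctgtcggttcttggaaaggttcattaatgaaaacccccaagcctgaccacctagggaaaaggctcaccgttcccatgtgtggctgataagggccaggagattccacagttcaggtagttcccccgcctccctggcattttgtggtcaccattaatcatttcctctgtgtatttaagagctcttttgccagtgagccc

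The IL6 window held 1 C/EBP match, 155 bases before the start, and 1 kappaB match, 73 bases before it. In the IL11 window 1 AP-1 match began 96 bases before the start, and the CSF2 window held no match to the 5 motifs. Of the 35116 promoter windows of the same length in the table, 6.57% held an AP-1 match, 2.67% a CRE match, 9.05% a C/EBP match, 5.21% a kappaB match and 10.7% a TATA box match. IL6ST had no match and OSMR had 1 C/EBP match, while 1 of the 3 LIFR windows held a C/EBP match and 2 overlapping TATA box matches. A match in these letters is a description of the window and not of binding.

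Messenger RNAs of many cytokines carry AUUUA pentamers after the stop codon, which proteins such as tristetraprolin (ZFP36) read to speed their decay. In the principal GENCODE release 29 transcripts, CSF2 had 8 such pentamers in 318 bases after the stop codon and IL6 had 6 in 429 bases. Per kilobase this was 25.2 for CSF2, which 0.0784% of 15300 tested genes matched or passed, and 14.0 for IL6, which 0.484% did. CSF3 had 8.20 per kilobase (2.20% of genes as dense or denser), IL11 had 5.56 (7.27%), LIFR had 4.37 (12.8%), CLCF1 had 4.13 (14.6%), IL6ST had 3.84 (16.9%), OSMR had 3.64 (19.0%), LIF had 2.18 (38.9%) and CSF1 had 1.86 (44.4%), beside a median of 1.52 over all these genes. The 3 densest members were CSF2, IL6 and CSF3. CSF2 was near the parental level in every clone, at 0.816 to 1.02 CPM over all libraries, while IL6 and CSF3 were lower in every clone. Whether pentamer density is related to these levels was not tested.

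Of 10 regulators of cytokine mRNA decay, all tested, 1 was lower by the criterion, against 5.34% of all genes tested. None was higher, against 4.24%. None passed an adjusted p of 0.05 by the edgeR fit. With DESeq2's Wald test 1 was lower by that limit, against 2.44%. The lower gene was ZC3H12A (regnase-1), a nuclease that cuts IL6 mRNA. It had 188 CPM in the parental library, 34.3 CPM in clone 1, 47.2 CPM in the library labelled clone 5 and 23.6 CPM in clone 6. The fitted log2 fold change of ZC3H12A was -2.43 (standard error 0.45, adjusted p = 0.275 with edgeR's quasi-likelihood test). ZFP36 lay above the parental library in every clone, with 12.9 CPM in the parental library, 122 CPM in clone 1, 21.5 CPM in the library labelled clone 5 and 48.3 CPM in clone 6. Its fitted log2 fold change was 2.31 (standard error 0.96, adjusted p = 0.497 with edgeR's quasi-likelihood test), outside the criterion. Over the 10 regulators the median was -0.12 on the log2 scale.

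The partners of the members were few and uneven. Of 6 other ligands of the IL6 type, 2 were tested and none met the criterion. OSM, which encodes oncostatin M, and the ligands IL27 and IL31 had at most 1 count in any library. None of the 5 other receptor chains met the criterion. IL6R, the IL6-binding chain, had 26.6 CPM in the parental library, 13.8 CPM in clone 1, 14.4 CPM in the library labelled clone 5 and 29.3 CPM in clone 6, so the parental level lay inside the range of the clones. IL11RA, the IL11-binding chain, had 196 counts in the parental cells, against 262 for clone 1, 699 where the label reads clone 5 and 857 in the remaining clone. CNTFR, the chain that binds CNTF and CLCF1-type ligands, had 1.32 CPM in the parental library, 0.340 CPM in clone 1, 10.0 CPM in the library labelled clone 5 and 17.9 CPM in clone 6. For CNTFR clone 1 lay below the parental library and the other clones above it, and the fitted log2 fold change was 2.84 (standard error 1.80, adjusted p = 0.638 with edgeR's quasi-likelihood test).

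For the receptors of the colony-stimulating factors, none of the 4 genes met the criterion. CSF1R, the receptor of CSF1, had 16 to 57 counts in the clones and 19 in the parental library. CSF3R, the receptor of CSF3, stood at 58 counts for the parental cells, against 6 in clone 1, 24 within the library labelled clone 5 and 16 in the remaining clone. CSF2RA, the binding chain of the GM-CSF receptor, had 14.8 CPM in the parental library, 11.6 CPM in clone 1, 0.713 CPM in the library labelled clone 5 and 0.0811 CPM in clone 6. The log2 ratio of CSF2RA was -0.35 in clone 1 and -7.51 in clone 6, so the clones lay further from each other than clone 1 lay from the parental library. CSF2RB, the signalling chain that goes with it, was without a count in the parental library and clone 1, while the library labelled clone 5 held 14 counts and clone 6 held 1.

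Among 5 related ligands, of which 3 were tested, 1 was lower and 1 higher by the criterion, against 5.34% and 4.24% of all genes. IL34, the other ligand of CSF1R, had 3.82 CPM in the parental library and 0.474 ± 0.212 CPM (SD, n = 3) in the clones. Its fitted log2 fold change was -3.00 (standard error 0.71, adjusted p = 0.327 with edgeR's quasi-likelihood test), and DESeq2's Wald test gave an adjusted p of 0.00764. KITLG, which encodes stem cell factor, had 19.0 CPM in the parental library, 57.5 CPM in clone 1, 220.2 CPM in the library labelled clone 5 and 285 CPM in clone 6. Over the 3 clones, KITLG differed from the parental library by a fitted log2 value of 3.30 (standard error 0.88, adjusted p = 0.386 with edgeR's quasi-likelihood test). Its adjusted p was 0.00749 with DESeq2's Wald test.

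Downstream of the receptors, of 9 genes of the JAK and STAT list, all tested, none met the criterion, and their median log2 fold change was -0.22. JAK1, the main kinase bound to IL6ST, had 144 CPM in the parental library and 112 ± 8.94 CPM (SD, n = 3) in the clones. STAT3 had 217 CPM in the parental library, 261 CPM in clone 1, 236 CPM in the library labelled clone 5 and 252 CPM in clone 6, and its fitted log2 change was 0.20 (standard error 0.28, adjusted p = 0.801 with edgeR's quasi-likelihood test). Of 7 feedback inhibitors, 1 was lower and 1 higher by the criterion, against 5.34% and 4.24% of all genes tested. SOCS1 had 52.9 CPM in the parental library and 13.3 ± 5.98 CPM (SD, n = 3) in the clones. Its estimated log2 change was -1.99 (standard error 0.56, adjusted p = 0.337 with edgeR's quasi-likelihood test), and DESeq2's Wald test gave an adjusted p of 0.0438. SOCS3, the inhibitor that binds IL6ST and a known target of STAT3, had 38.5 CPM in the parental library, 58.3 CPM in clone 1, 45.0 CPM in the library labelled clone 5 and 77.9 CPM in clone 6. Its level was above the parental library in every clone, and the estimated log2 change of 0.65 (standard error 0.39, adjusted p = 0.571 with edgeR's quasi-likelihood test) did not meet the criterion. PTPN6, the gene that was higher, had 2 counts in the parental library and 17 to 29 in the clones.

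Of 20 STAT3 target genes, 16 were tested. By the criterion 2 were lower, against 5.34% of all genes tested, and 1 was higher, against 4.24%. None passed an adjusted p of 0.05 by the edgeR fit. With DESeq2's Wald test 3 passed it, of which 2 were lower, against 2.44% of all genes, and 1 was higher, against 2.5%. CEBPB, a transcription factor of the acute-phase response, had 663 CPM in the parental library and 126 ± 16.7 CPM (SD, n = 3) in the clones. VEGFA, an angiogenic factor, had 1217 CPM in the parental library and 239 ± 30.1 CPM (SD, n = 3) in the clones. TIMP1, an inhibitor of metalloproteinases, went the other way, with 170.4 CPM in the parental library and 422 ± 50.4 CPM (SD, n = 3) in the clones. The fitted log2 fold changes were -2.39 for CEBPB, -2.35 for VEGFA and 1.31 for TIMP1, with adjusted p-values of 0.259, 0.259 and 0.337 in edgeR's quasi-likelihood test. The median over the 16 genes was -0.34. Of the cell type markers, PTPRC and the collagen gene COL1A2 were higher by the same criterion, against 4.24% of all genes tested. No marker was lower, against 5.34%.

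**Figure D4:**
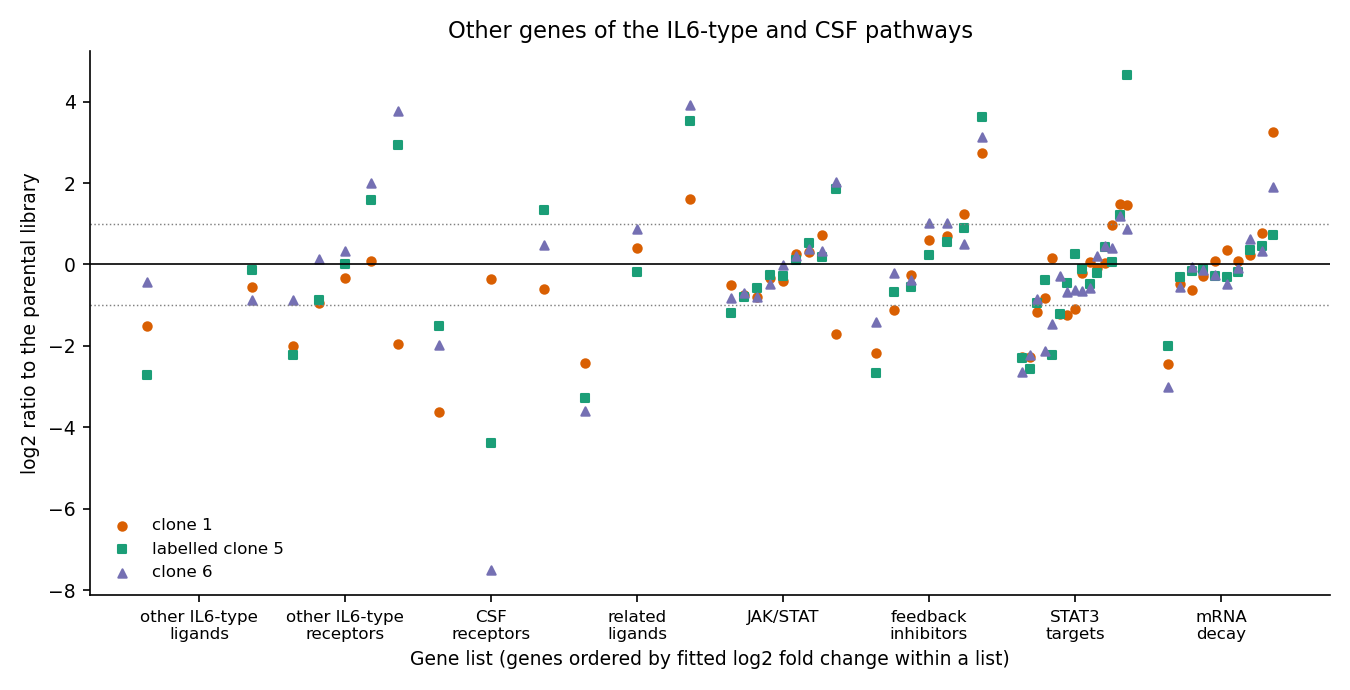
Log2 ratio of each NOS2KO clone to the parental library for the tested genes of 8 lists of the same pathways, 1 point per gene and clone, with dotted lines at -1 and 1 and without genes that had 0 counts in a library. JAK1 and STAT3 lie between the dotted lines in all 3 clones, and among the plotted genes CSF2RA (-0.35 to -7.51) and CNTFR (-1.95 to 3.76) have the widest range over the clones.

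The genes around each member on its chromosome were set beside it. Over the 20 nearest tested genes of each member, 10 on each side, the median log2 ratio lay between -0.52 and 0.66 over all members and clones. For IL6 this median was 0.43, -0.04 and 0.08 over clone 1, the library labelled clone 5 and clone 6, beside ratios of IL6 itself of -3.25, -4.24 and -5.32. Around CSF3 it was -0.13, 0.18 and 0.20 in the same order, and around LIF it was -0.03, 0.16 and 0.10. CLCF1, with ratios of 0.07, 0.24 and 0.25, lay nearer to its neighbours (0.27, 0.44 and 0.66), as did CSF2 in the library labelled clone 5, with -0.32 beside -0.38. For LIFR the neighbours had medians of 0.03, 0.48 and 0.47, beside its own ratios of 0.68, 1.67 and 1.69. The nearest tested gene on the lower-coordinate side of IL6ST was IL31RA, the receptor chain for IL31, and it had 21.8 CPM in the parental library, 5.46 CPM in clone 1, 4.69 CPM in the library labelled clone 5 and 11.9 CPM in clone 6, so that the clones had the same order as for IL6ST. Per kilobase, IL31RA stood at 2.45% of IL6ST in the parental library and at 1.96% to 2.63% in the clones.

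**Figure D5:**
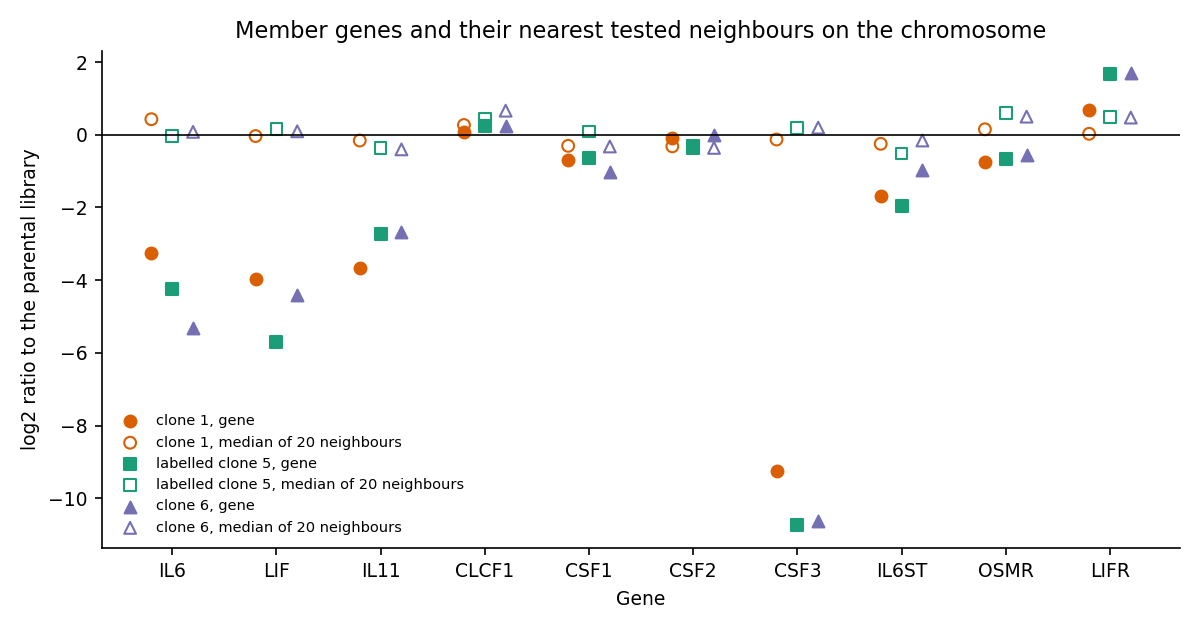
Log2 ratio to the parental library of each member gene (filled) and the median over its 20 nearest tested genes on the chromosome (open), for each NOS2KO clone. The open symbols lie between -0.52 and 0.66, while IL6, LIF, IL11 and CSF3 lie at -2.67 or below in all 3 clones.

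The clones differed among themselves in some members. IL6 was 1.98-fold higher in clone 1 than in the library labelled clone 5 and 4.18-fold higher than in clone 6. It was 2.11-fold higher in the library labelled clone 5 than in clone 6. LIFR and IL11 were lowest in clone 1. LIF was lowest in the library labelled clone 5, where clone 1 was 3.32-fold higher, and IL6ST was highest in clone 6. These are values of single libraries without a test.

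By their 3 log2 ratios to the parental library, the genes nearest to IL6 among the 10709 genes reaching 10 CPM in some library were AKNA, CLGN, STC2, CTH and TRIB3, at Euclidean distances of 0.358, 0.394, 0.567, 0.651 and 0.982 on the log2 scale. STC2, which encodes the secreted stanniocalcin 2, had 534 CPM in the parental library and 68.6, 24.1 and 18.1 CPM in clone 1, the library labelled clone 5 and clone 6. AKNA had 172 CPM in the parental library and 15.1, 10.3 and 4.85 CPM in the same clones. The 5 genes nearest to CSF2 were TOP2B, PGLS, C19orf12, COX18 and USF2, all within a distance of 0.0748. These likenesses rest on 4 libraries that share the parental one and are given as a description.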

How the data were processed

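RNA-sequencing counts of 1 parental and 3 NOS2KO SUM159 libraries were used. The values the authors deposited are raw counts for each of 57500 Ensembl genes, not normalized. The submitters' processing notes list bcl2fastq 2.17, Trimmomatic 0.36, STAR 2.5.2b, featureCounts (Subread 1.5.2) and the build GRCh38, without roles. The annotation release and strand setting are not given in the sources used here. Symbols came from GENCODE release 29 (56898 genes matched, 54784 with the same start and end).

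The main test used edgeR 4.0.16 under R 4.3.3 (filterByExpr, TMM, estimateDisp, glmQLFit, glmQLFTest) over 22511 genes, where the residual degrees of freedom were 2 and the common dispersion was 0.319, and with DESeq2 1.42.0 as an alternative. Standard errors were taken from the fitted weights and the quasi-likelihood dispersion. Log2 ratios of single clones carry exact Clopper-Pearson 95% intervals. Intervals and the floor of 3 counts (0.0262 to 0.0332 CPM) cover counting error only. With 1 library against 3, the smallest exact permutation p is 0.25. Tests and intervals were first tested on simulated data. Tables and plots were made in Python 3.11.15 (pandas 2.3.3, numpy 2.4.6, matplotlib 3.10.9 and, for intervals, scipy 1.17.1).

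The members and the gene lists were chosen with earlier results of these data known. Named genes were the members, NOS2, fixed partners (IL6R, IL11RA, CNTFR, CSF1R, CSF2RA, CSF2RB, CSF3R, JAK1, STAT3, SOCS3), up to 4 further genes of each list past the criterion, and the 5 genes nearest in pattern to IL6 and CSF2. A further fixed gene is not reported here. Overlapping genes, IL31RA, ZFP36, other markers, OSM, IL27, IL31 and the AUUUA counts were added after values were seen. Alternatives were other scalings, filters, tests, a prior count of 1, and fits that left out a clone or kept only that clone.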

Additional observations from a re-analysis of the deposited data

How the results depend on the processing

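All 10 members kept the sign of their log2 fold change in the 12 alternatives with a test. The number of members with an adjusted p under 0.05 was 0 with edgeR's quasi-likelihood test, 1 with no filter, 1 with the bias-adjusted quasi-likelihood method (CSF3 in both) and 4 with DESeq2's Wald test, and 0 with each clone left out. Members lower by the criterion on edgeR p-values numbered 4 to 5 with each clone left out. LIFR, the only member higher by that criterion, was lost with library size scaling, with a minimum of 1 CPM and with robust estimation (0 members each), and leaving out a clone gave 0 to 1. The median log2 fold change over the members ranged from -1.25 to -1.05 when a clone was left out, and was -1.32 in the library labelled clone 5 alone. The number of members higher past the fold threshold in every clone was 0, became 1 with a threshold of 1.5-fold, and was 0 to 1 when a clone was left out. Those lower in this way were 4 to 5 when a clone was left out. The cause of these shifts was not tested. Shares of all genes were counted in the main setting and, for the adjusted p, with DESeq2's Wald test, but not in the other settings. By adjusted p they were 0.00444% in the main setting, and 2.44% lower and 2.5% higher with DESeq2's Wald test. Upper quartile scaling shifted all log2 ratios by up to 0.13. No paired analysis was possible because there is 1 parental library, and its number was given in accession order. Every CSF3 count in the clones was at or under the floor, which limits the precision of its ratios. Each clone library held more counts in total than the parental library.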
